A study of Homo sapiens with 26 samples.

Results

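Tight junctions and desmosomes are the seal and the rivets of an epithelium, and 38 genes that encode their parts were followed through messenger RNA sequencing of 26 pancreatic cancer clones. The genes were chosen by symbol: 15 claudins, 4 other membrane proteins of the tight junction, 4 proteins of its cytoplasmic plaque, 4 members of the polarity complexes that position it, 4 desmosomal cadherins, 6 proteins of the desmosomal plaque, and PERP, a membrane protein that desmosomes need in stratified epithelia. All 38 were found by Ensembl identifier in a table of 41078 genes.

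In a tight junction, claudins form the strands that close the space between neighbouring cells or let chosen ions through, and occludin and its relatives shape and stabilize the strands. Scaffold proteins tie the strands to actin, and the CRB3, PATJ, PARD3 and PARD6B complexes set where along the cell's side the junction forms. In a desmosome, desmogleins and desmocollins bind the next cell, plakoglobin and plakophilins gather at their tails, and desmoplakin ties the plaque to keratin filaments. Pancreatic duct cells carry both junctions, and both are known to be lost when carcinoma cells turn mesenchymal.

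Each library came from 1 single cell-derived cell line (SCDCL), a culture grown from a single cell after limiting dilution, so each SCDCL was measured once and replicates are different clones. The labels name 12 SCDCLs BxPC3, a pancreatic ductal adenocarcinoma line classed as classical-like, and 14 Panc-1, a line classed as basal-like. Both were grown in the same serum-containing medium, the parental lines were not analysed here, and the labels give no further genotype and no time point. The labels also list gemcitabine as the treatment of every library, while the study's methods describe the drug only for viability assays and the collection of RNA from confluent flasks. Libraries are named here by the number in their titles.

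The labels went against a defining gene of the lines. BxPC3 is known to lack SMAD4, a transducer of TGF-beta signals, and Panc-1 to carry it. SMAD4 was at 0 to 0.0440 TPM (median 0.0125) in 12 libraries (5 with the BxPC3 label, 7 with the Panc-1 label) and at 28.1 to 52.2 TPM (median 32.5) in the other 14, 7 of each label. These are called SMAD4-low and SMAD4-expressing libraries below, and where a gene is given 2 ranges the SMAD4-low range comes first. The set sizes match the numbers of SCDCLs labelled BxPC3 (12) and Panc-1 (14), and whether labels were exchanged between libraries was not tested. TPM is a share of all transcripts corrected for transcript length and depth, so levels of different genes can be set side by side. Since the sets were made from a measured level, differences between them are given as levels without a test. A gene was counted as set apart when its lowest library in one set lay above its highest in the other and the medians differed over 2-fold on the TPM + 1 scale, which understates the ratio of genes near 0.

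The sets also differed in general epithelial and mesenchymal genes. VIM (vimentin) was at 1.42 to 73.2 TPM (median 11) in the SMAD4-low and at 3047 to 4526 TPM (median 3718) in the SMAD4-expressing libraries, and EPCAM at 239 to 424 TPM (median 308) and 7.49 to 25.5 TPM (median 13.5). The keratins of simple epithelia did not follow EPCAM: KRT8 was at 298 to 781 TPM (median 461) and 704 to 4005 TPM (median 2053), KRT18 at 393 to 757 TPM (median 521) and 733 to 2732 TPM (median 1598), and KRT19 at 1154 to 3176 TPM (median 1966) and 558 to 2075 TPM (median 1220.3). The medians of KRT8 and KRT18 were higher in the SMAD4-expressing libraries, with overlapping ranges. Of the mesenchymal markers, ZEB1 followed VIM, CDH2 overlapped between the sets, and FN1 (fibronectin) had the opposite order, at 8.39 to 66.2 TPM (median 32.6) and 0.787 to 3.2 TPM (median 1.33). The immune markers PTPRC and CD3E did not pass 0.535 and 0.393 TPM, the fibroblast marker LUM 0.243 TPM and the endothelial marker VWF 0.473 TPM. CD68 was set apart, at 5.27 to 26.9 TPM (median 9.76) and 42.5 to 141 TPM (median 61.8). COL1A1 was present in every library (2.06 to 38.5 TPM). CDH5 reached 13.6 TPM in the SMAD4-low and 0.0427 TPM in the SMAD4-expressing libraries. A further endothelial marker, PECAM1, was at 0.897 to 6.07 TPM (median 2.19) and 0.321 to 5.38 TPM (median 2.98). The fibroblast markers COL3A1 and DCN reached 1.87 and 1.07 TPM. The part of these differences in the junction levels was not tested. In bulk RNA, fewer cells with a transcript and less of it in each cell cannot be told apart. Totals were 27035724 to 34945608 estimated counts a library.

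Of the 38 genes, 32 had a median of at least 1 TPM in at least 1 set. Among these, 14 were set apart with the higher level in the SMAD4-low libraries, where 12.6% of the 15246 genes at that level were, and 2 with the higher level in the SMAD4-expressing libraries, where 12% were. The other 16 overlapped. The median log2 ratio over the 32 genes, SMAD4-low over SMAD4-expressing, was 1.43. The desmosomal cadherins and plaque gave 7 of the 14, the claudins 3 and the other tight junction membrane proteins 3. The tight junction plaque gave none of its 4 genes. The remaining 6 genes, CLDN2, CLDN6, CLDN9, CLDN11, CLDN14 and CLDN18, had a median below 1 TPM in both sets.

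**Figure D1:**
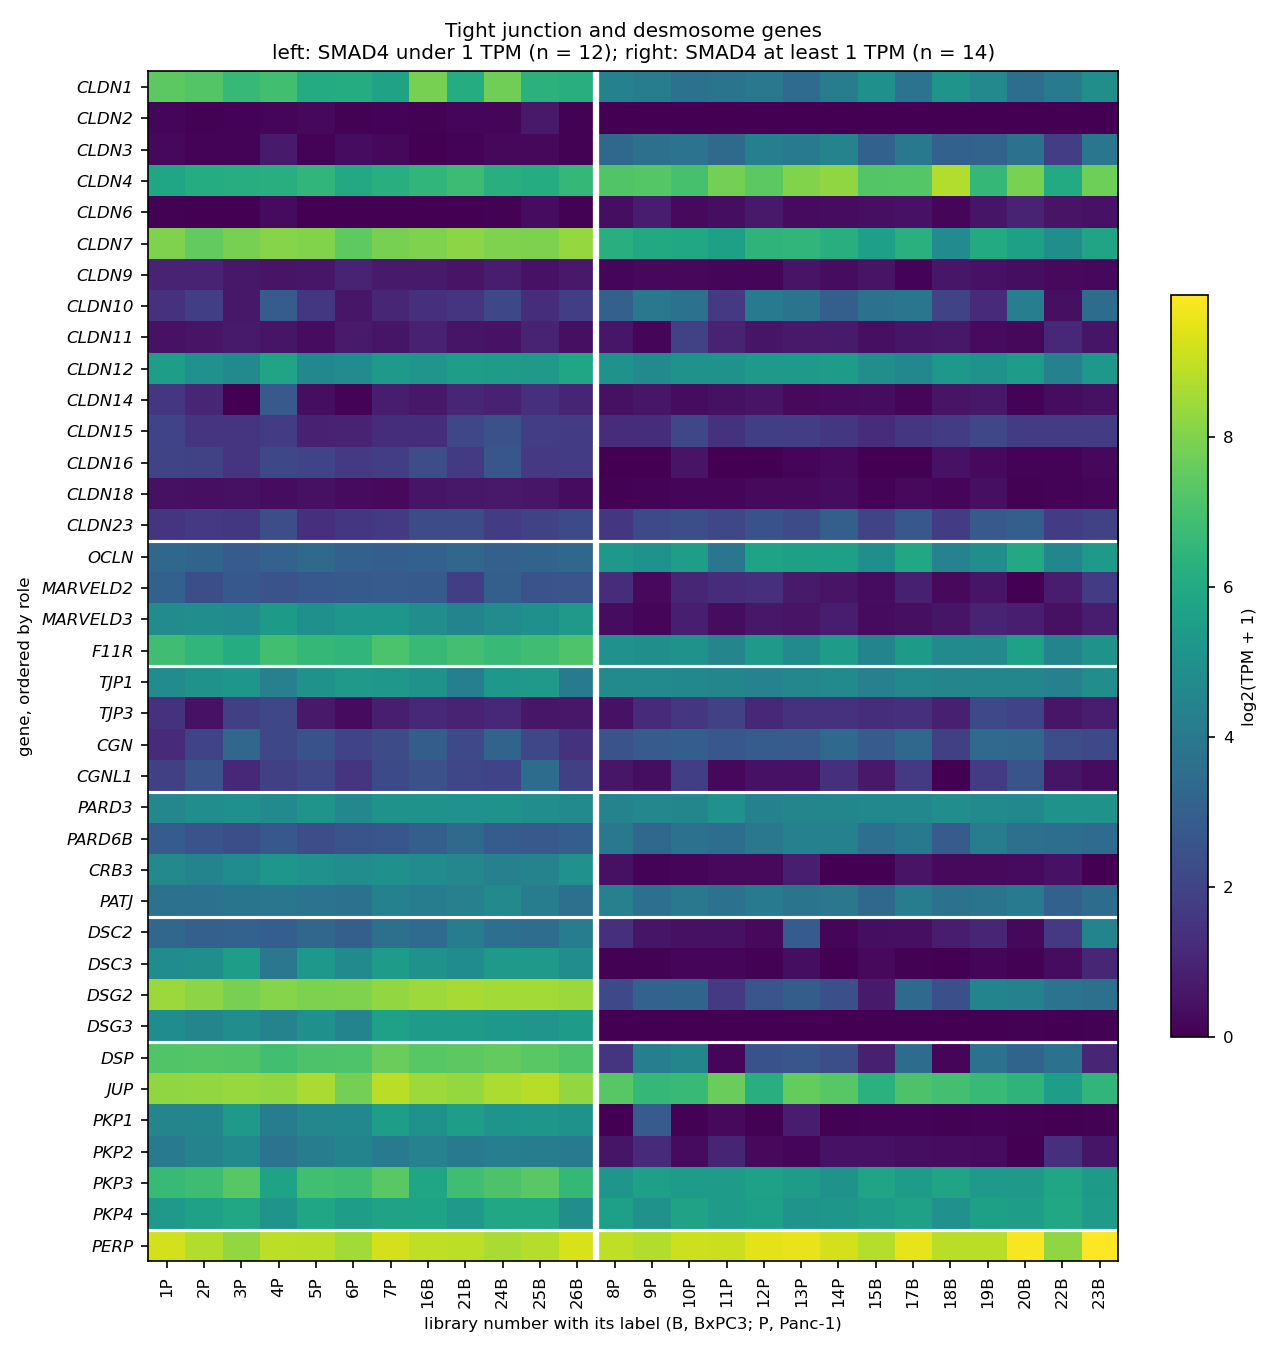
Level of each of the 38 genes (rows, grouped by role between white lines) in each of the 26 libraries (columns, with their number and label), as log2(TPM + 1). The desmosome rows from DSC2 to PKP2 are mostly brighter in the 12 SMAD4-low libraries on the left than in the 14 SMAD4-expressing libraries on the right. Among them JUP stays bright on both sides, while the rows of PERP, PKP4 and PARD3 look alike on both sides.

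**Figure D2:**
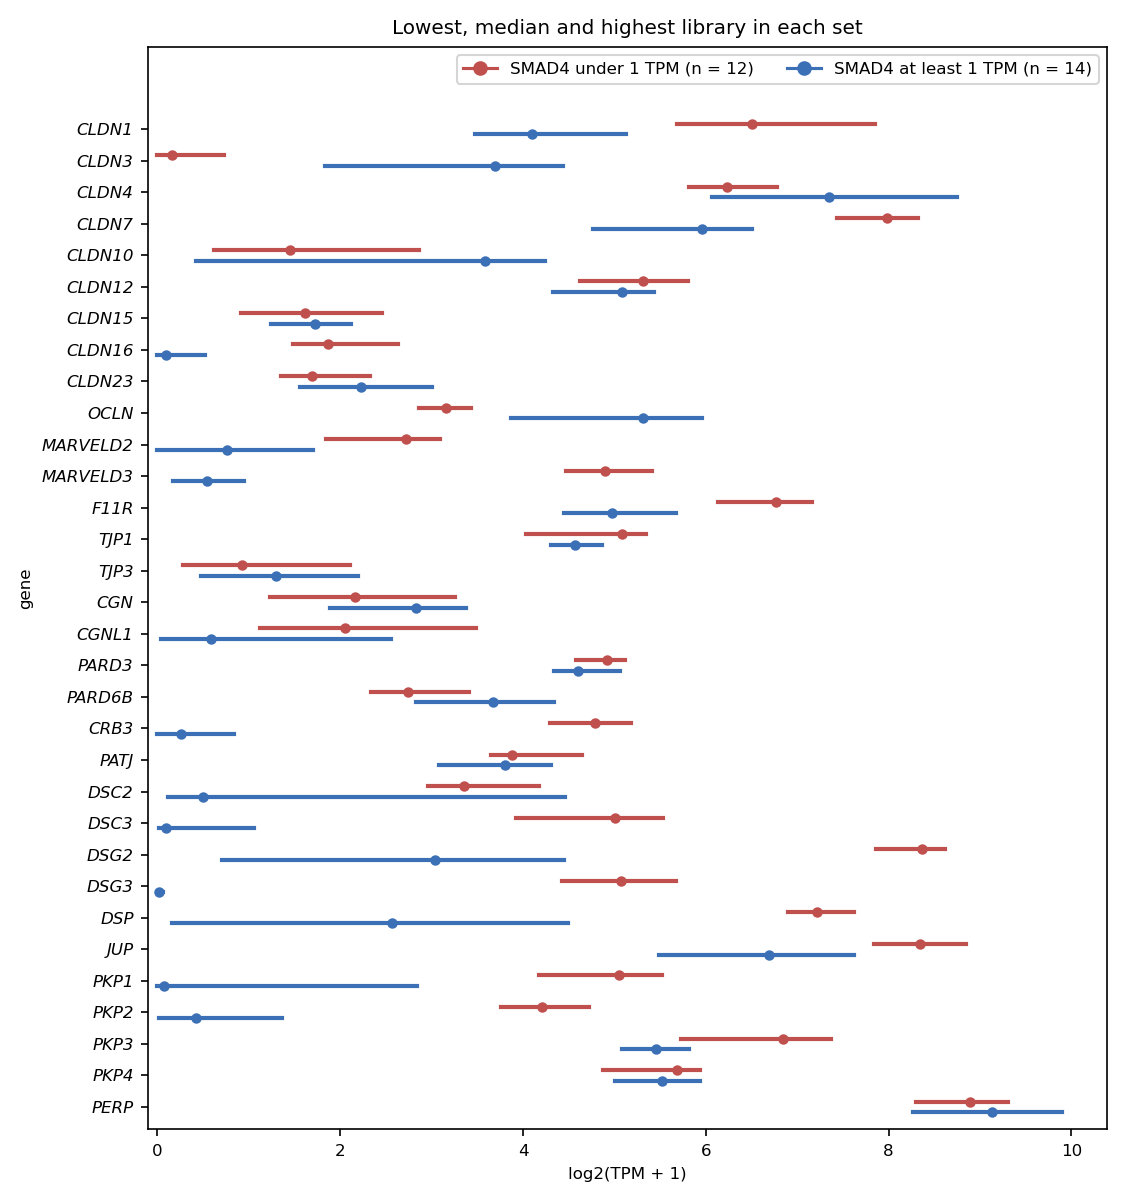
Lowest, median (dot) and highest library of each set for the 32 genes with a median of at least 1 TPM in either set, on a log2(TPM + 1) axis. Bars that share no part of the axis belong to the 16 genes set apart, of which CLDN3 and OCLN alone lie higher in the SMAD4-expressing libraries.

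The claudin genes did not fall together. CLDN7, a claudin of simple and ductal epithelia, was at 171 to 319 TPM (median 252) in the SMAD4-low and at 26.1 to 89.9 TPM (median 61.3) in the SMAD4-expressing libraries, a 4.07-fold difference of the medians on the TPM + 1 scale. CLDN1, which is needed for the barrier of the skin, was at 50.5 to 230.4 TPM (median 90.04) and 10.1 to 34.1 TPM (median 16.2). Both genes were thus lower in every SMAD4-expressing library than in any SMAD4-low library, yet both remained detected in all of them.

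CLDN3 and CLDN4, known as receptors of a Clostridium enterotoxin, lie 29.3 kb apart on chromosome 7 and showed another order. CLDN3 was at 0 to 0.658 TPM (median 0.114) in the SMAD4-low libraries and at 2.57 to 20.7 TPM (median 12) in the SMAD4-expressing ones. CLDN4 was at 55.4 to 108 TPM (median 74.2) and 66 to 429 TPM (median 161). CLDN3 was therefore near 0 in the SMAD4-low libraries and set apart, while the ranges of CLDN4 overlapped, with the SMAD4-expressing median higher.

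The leading claudin differed between the sets. CLDN7 had the highest level of the 15 claudins in 12 of 12 SMAD4-low libraries, with a median of 52.1% of their summed TPM, and CLDN4 in 14 of 14 SMAD4-expressing libraries, with a median of 53.3%. The ratio of CLDN7 to CLDN4 was 2.63 to 4.57 in the first set and 0.0609 to 0.691 in the second. The sums themselves overlapped, at 337 to 622 and 139.98 to 545 TPM, so the makeup of the claudins separated the sets where their total did not.

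**Figure D3:**
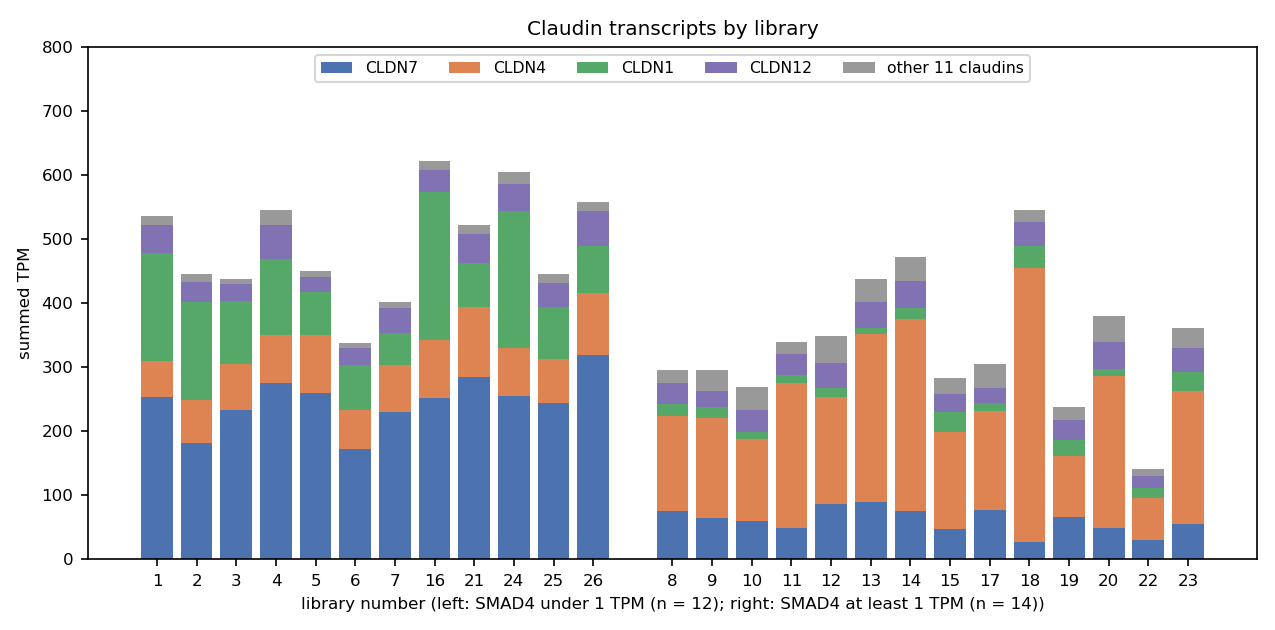
Stacked TPM of the 15 claudins in each library, with CLDN7, CLDN4, CLDN1 and CLDN12 coloured and the other 11 summed in grey. CLDN7 fills the largest part of each of the 12 bars on the left and CLDN4 of each of the 14 bars on the right, of which library 22 has the shortest bar and library 18 the largest CLDN4 part.

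Among the less abundant claudins, CLDN16, which is known for magnesium uptake in the kidney, was at 1.79 to 5.22 TPM (median 2.65) and 0 to 0.430 TPM (median 0.0717) and was set apart. In GENCODE its start lies 94 bases from that of CLDN1, on the opposite strand of chromosome 3, and both were higher in the SMAD4-low libraries. RefSeq places a further start of CLDN16 beyond CLDN1, so reads of the pair may not be fully told apart, since the strand setting of the quantification is not given in the sources used here. CLDN10, which forms ion-selective pores, was at 0.533 to 6.27 TPM (median 1.74) and 0.340 to 17.9 TPM (median 11), with an overlap because 4 of the SMAD4-expressing libraries (11, 18, 19 and 22) lay below the highest SMAD4-low library. CLDN12 was at 23.7 to 54.9 TPM (median 38.6) and 19.1 to 42.2 TPM (median 32.8), with overlapping ranges. CLDN15 (0.879 to 4.48 and 1.37 to 3.35 TPM) and CLDN23 (1.56 to 4.03 and 1.95 to 7.01 TPM) overlapped too. Of the 6 claudins below a median of 1 TPM, CLDN14 reached 5.87 TPM in library 4 and CLDN11 2.84 TPM in library 10, and CLDN2, CLDN6, CLDN9 and CLDN18 stayed below 1 TPM in every library.

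The start of CLDN7 is shown because it is among the 2 windows of these genes that hold 5 copies of CAGGTG, the E-box read on either strand (CACCTG is its other strand), to which ZEB and SNAI repressors are known to bind. RefSeq windows from 250 bases before to 50 bases after a start site (300 bases, GRCh38.p14) were found for 30 of the 38 genes, 46 windows in all. At least 1 E-box was present in 17 of the 46, or 37.0%, and in 20.6% of all 35116 windows. At least 3 were present in 3 of the 46 and in 0.635% of all windows, and 5 or more in 2 of the 46 and in 0.094% of all. The other CLDN7 window holds none. The E-boxes are in capitals and each sequence runs 5′ to 3′ along the gene.
CLDN7 chr17:7262429-7262728 (- strand): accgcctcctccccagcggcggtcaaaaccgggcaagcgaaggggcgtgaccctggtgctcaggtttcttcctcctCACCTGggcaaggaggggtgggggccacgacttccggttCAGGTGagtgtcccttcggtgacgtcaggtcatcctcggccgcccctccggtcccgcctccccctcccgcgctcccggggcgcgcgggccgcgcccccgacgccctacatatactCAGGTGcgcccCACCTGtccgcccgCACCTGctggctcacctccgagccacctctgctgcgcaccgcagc

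All 4 of the other tight junction membrane genes were set apart, in both directions. OCLN (occludin) was at 6.26 to 9.75 TPM (median 7.9) in the SMAD4-low and at 13.6 to 61.2 TPM (median 38.7) in the SMAD4-expressing libraries, 4.46-fold higher in the latter by the medians on the TPM + 1 scale. MARVELD2 (tricellulin, which seals the corners where cells meet) was at 2.58 to 7.52 TPM (median 5.6) and 0 to 2.26 TPM (median 0.694). The pair is neighbouring, 48.0 kb apart on chromosome 5 and on the same strand, and lay in opposite directions in these libraries. OCLN has an annotated pseudogene copy, OCLNP1, on the same chromosome, and reads shared with it could add to the error of its level.

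MARVELD3, the last of the occludin-like family, was at 21.1 to 41.5 TPM (median 28.8) and 0.125 to 0.927 TPM (median 0.454), a 20.5-fold difference in favour of the SMAD4-low libraries. F11R, the junctional adhesion molecule JAM-A, was at 69.2 to 142 TPM (median 108) and 20.8 to 50.2 TPM (median 30.5). F11R was the most abundant of the 4 genes in 12 of 12 SMAD4-low libraries, and OCLN in 12 of 14 SMAD4-expressing libraries. Of its family, OCLN alone was above 2.26 TPM in the SMAD4-expressing libraries.

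The window of the downstream OCLN start site is shown too, and it holds 2 E-boxes. OCLN had its higher level in the other set of libraries than CLDN7. The part of E-boxes in these levels was not tested.
OCLN chr5:69492540-69492839 (+ strand): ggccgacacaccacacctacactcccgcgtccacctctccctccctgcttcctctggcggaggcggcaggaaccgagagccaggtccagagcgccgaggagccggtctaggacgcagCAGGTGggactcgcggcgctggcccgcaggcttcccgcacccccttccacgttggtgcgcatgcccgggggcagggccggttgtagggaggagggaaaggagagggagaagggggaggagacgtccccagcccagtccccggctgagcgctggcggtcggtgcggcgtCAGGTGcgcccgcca

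None of the 4 listed genes of the cytoplasmic tight junction plaque was set apart. TJP1, which encodes the scaffold ZO protein that binds claudins and occludin, was at 15.4 to 39.7 TPM (median 32.9) and 18.7 to 28.1 TPM (median 22.7), and it was the most abundant of the 4 plaque genes in all 26 libraries. CGN (cingulin, a link to actin and myosin) was at 1.35 to 8.59 TPM (median 3.48) and 2.7 to 9.38 TPM (median 6.12). CGNL1 (paracingulin) was at 1.18 to 10.2 TPM (median 3.16) and 0.0269 to 4.89 TPM (median 0.499), and TJP3 at 0.216 to 3.31 TPM (median 0.897) and 0.391 to 3.57 TPM (median 1.46). The ranges overlapped for each of them, and TJP1 and CGN RNA was present in all 26 libraries.

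Of the polarity genes, PARD3 and PARD6B, of the complex that works with atypical protein kinase C, and PATJ, of the Crumbs complex, overlapped between the sets. PARD3 was at 22.9 to 33.8 TPM (median 29.2) and 19.2 to 32.5 TPM (median 23.3), PARD6B at 4.05 to 9.65 TPM (median 5.7) and 6.1 to 19.3 TPM (median 11.8), and PATJ at 11.5 to 24 TPM (median 13.7) and 7.49 to 18.7 TPM (median 13). CRB3, the membrane anchor of the Crumbs complex in epithelia, alone among the listed polarity genes was set apart. It was at 18.7 to 35.3 TPM (median 26.6) and 0 to 0.790 TPM (median 0.195), where its highest library had 11.6 estimated counts. The anchor was therefore near 0 in all 14 SMAD4-expressing libraries while the ranges of its partner PATJ overlapped. PALS1, from the list of other tight junction genes described below, was set apart in the opposite direction to CRB3. It was at 11.6 to 21.9 TPM (median 18.3) and 30.4 to 71 TPM (median 50.4).

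The windows of CRB3 and PATJ are printed together because they rank with CLDN7 as the 3 with most E-boxes (5 and 3). The levels of CRB3 were set apart and those of PATJ were not. Whether E-boxes have a part in either level was not tested.
CRB3 chr19:6464021-6464320 (+ strand): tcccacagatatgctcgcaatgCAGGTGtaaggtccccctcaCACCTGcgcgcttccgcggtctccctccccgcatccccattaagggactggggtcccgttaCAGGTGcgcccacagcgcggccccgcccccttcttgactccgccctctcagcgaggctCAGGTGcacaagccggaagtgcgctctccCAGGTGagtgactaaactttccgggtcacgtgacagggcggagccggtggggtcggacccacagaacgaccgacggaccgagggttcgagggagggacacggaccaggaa
PATJ chr1:61742230-61742529 (+ strand): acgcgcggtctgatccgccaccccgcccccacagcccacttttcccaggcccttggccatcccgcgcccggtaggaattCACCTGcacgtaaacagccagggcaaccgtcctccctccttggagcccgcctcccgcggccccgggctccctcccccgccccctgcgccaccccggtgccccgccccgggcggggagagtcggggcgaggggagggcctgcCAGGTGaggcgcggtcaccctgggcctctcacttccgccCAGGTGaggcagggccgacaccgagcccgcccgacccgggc

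The widest gap between the sets was in the desmosomal cadherins. DSG2 (desmoglein 2, the desmoglein of simple epithelia) was at 232 to 391 TPM (median 329) in the SMAD4-low libraries and at 0.631 to 20.8 TPM (median 7.19) in the SMAD4-expressing ones, 40.3-fold apart by the medians on the TPM + 1 scale. DSG3, which with DSC3 is known from the lower layers of stratified epithelia, was at 20.5 to 50.3 TPM (median 32.6) and 0 to 0.0405 TPM (median 0.0106). Its highest SMAD4-expressing library had 4.07 estimated counts, so no ratio is given for DSG3. DSC3 was at 14.2 to 45.3 TPM (median 31.3) and 0.00911 to 1.08 TPM (median 0.0706).

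DSC2, the desmocollin of simple epithelia, was at 6.77 to 17 TPM (median 9.24) and 0.0879 to 21 TPM (median 0.413). It missed the criterion through library 23 alone, at 21 TPM, since the next SMAD4-expressing library, 13, had 6.31 TPM and the lowest SMAD4-low library 6.77 TPM. In library 23 DSC2 was the most abundant of the 4 cadherins, and DSC3 had its highest level of that set there, 1.08 TPM. DSG2 led in the other 13 SMAD4-expressing and in all 12 SMAD4-low libraries. The 4 cadherins summed to 303 to 478 TPM in the SMAD4-low and to 1.09 to 33.8 TPM in the SMAD4-expressing libraries.

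The 4 genes sit in 1 cluster on chromosome 18, with 16 kb between DSC3 and DSC2, 345 kb between DSC2 and DSG3 (where DSC1, DSG1 and DSG4 lie), and 19.5 kb between DSG3 and DSG2. SMAD4, from which the sets were made, lies on the same chromosome (51028528 to 51085045 in GRCh38, against 31498177 to 31549008 for DSG2). DNA copy number was not analysed here, and its part in these levels was not tested.

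In the desmosomal plaque, DSP (desmoplakin) was at 119 to 196 TPM (median 148) and 0.116 to 21.6 TPM (median 4.93), a 25.2-fold difference. The plakophilins differed from each other. PKP1 was at 17.1 to 44.9 TPM (median 32.3) and 0 to 6.14 TPM (median 0.0539), and PKP2, the plakophilin of simple epithelia and heart, at 12.5 to 25.5 TPM (median 17.5) and 0.0132 to 1.58 TPM (median 0.338). Of the SMAD4-expressing libraries, library 9 had 6.14 TPM of PKP1 and the others at most 0.672 TPM.

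PKP3 was at 52 to 165 TPM (median 114) and 33 to 55.5 TPM (median 42.8). Its ranges touched only because SMAD4-low library 4, at 52.0 TPM, lay below the highest SMAD4-expressing library. JUP (plakoglobin, which also serves adherens junctions) was at 227 to 461 TPM (median 324) and 44 to 195 TPM (median 102), set apart but with the smallest ratio of the 14 genes, 3.15-fold. PKP4, which is found at adherens junctions as well, was at 28.4 to 60.1 TPM (median 50.4) and 31.1 to 60.4 TPM (median 45), and PERP at 314 to 631 TPM (median 475) and 308 to 951 TPM (median 558). Of the 11 desmosome genes, 7 were thus set apart, each lower in the SMAD4-expressing libraries, and DSC2, PKP3, PKP4 and PERP overlapped between the sets. JUP, PKP3, PKP4 and PERP were at 28.4 TPM or more in all 26 libraries.

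**Figure D4:**
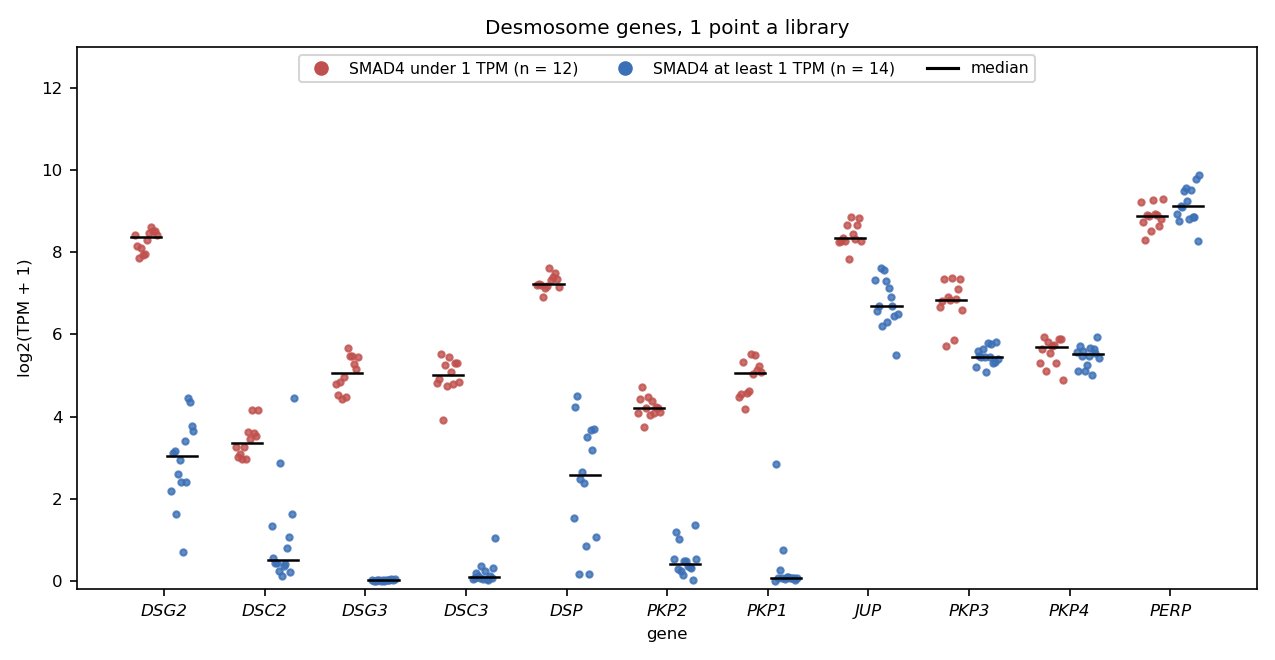
Each library's log2(TPM + 1) for 11 desmosome genes, SMAD4-low libraries in red and SMAD4-expressing libraries in blue, with the median of each set as a black line. The red and blue points of DSG2, DSG3, DSC3, DSP, PKP2, PKP1 and JUP do not overlap, the highest blue point of DSC2 is library 23, and the points of PKP4 and PERP overlap.

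The windows of DSG2 and DSP, the most abundant cadherin and linker of the SMAD4-low libraries, hold 2 E-boxes each. Those found for DSC3, DSG3 and PKP1 hold none. All 5 genes were set apart in the same direction, and a relation of E-boxes to their levels was not tested.
DSG2 chr18:31497927-31498226 (+ strand): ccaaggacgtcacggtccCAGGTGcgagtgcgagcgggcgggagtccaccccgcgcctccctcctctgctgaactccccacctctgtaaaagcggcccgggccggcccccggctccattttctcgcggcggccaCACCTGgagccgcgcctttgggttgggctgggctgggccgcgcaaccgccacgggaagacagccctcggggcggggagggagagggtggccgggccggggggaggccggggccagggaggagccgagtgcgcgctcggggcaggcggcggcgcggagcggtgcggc
DSP chr6:7541421-7541720 (+ strand): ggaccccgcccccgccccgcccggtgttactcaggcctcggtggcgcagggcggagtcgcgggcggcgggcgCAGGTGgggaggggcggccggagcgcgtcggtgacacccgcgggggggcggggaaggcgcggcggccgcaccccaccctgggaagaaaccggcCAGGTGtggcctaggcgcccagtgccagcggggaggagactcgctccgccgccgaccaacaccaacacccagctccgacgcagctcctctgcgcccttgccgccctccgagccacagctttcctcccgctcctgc

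Levels also varied among the libraries of a set. In the SMAD4-low libraries, 30 of the 38 genes had a median of at least 1 TPM, and 19 of these varied over 2-fold between the highest and the lowest library on the TPM + 1 scale, where 48.4% of 14095 genes did. The median SD of log2(TPM + 1) was 0.33 over the 30 genes and 0.30 over all genes. In the SMAD4-expressing libraries, 17 of 22 genes varied over 2-fold, where 51.1% of 13532 genes did, and the median SD was 0.46 against 0.29 for all genes. The SD was more than 3 times the counting error expected from the estimated counts for 28 of the 30 and for 21 of the 22. Counting error leaves out the culture and the preparation of a library, and with 1 library an SCDCL these cannot be told apart from differences between clones.

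The most variable genes of the SMAD4-low libraries were CLDN1 (SD 0.72), CLDN10 (0.62), CGN (0.62), CGNL1 (0.58) and PKP3 (0.53). CLDN1 was highest in libraries 16 and 24 and lowest in library 7. Those of the SMAD4-expressing libraries were DSP (1.46), CLDN10 (1.2), DSG2 (1.03), CLDN4 (0.68) and CLDN3 (0.65). DSP was among the least variable in the SMAD4-low libraries (SD 0.19), and in the SMAD4-expressing libraries it ran from 0.116 TPM in library 18 to 21.6 TPM in library 10. OCLN was the least variable gene of the SMAD4-low set (SD 0.17) and TJP1 of the SMAD4-expressing set (SD 0.16).

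Of the 20 genes with a median of at least 1 TPM in both sets, 13 had the larger SD in the SMAD4-expressing libraries, where 48.2% of 12381 genes did. Single libraries took part in several extremes. Library 22 was lowest for 8 of the 22 genes of its set, namely CLDN3, CLDN4, CLDN10, CLDN12, TJP1, PATJ, JUP and PERP, and library 18 for 5, while it held the highest CLDN4, 429 TPM. Libraries 19 and 20 were highest for 4 each. In the SMAD4-low set, library 4 was lowest for 7 of 30 genes, all of the desmosome (DSC2, DSC3, DSG3, DSP, PKP1, PKP2 and PKP3). It was highest for 4, namely CLDN10, CLDN23, MARVELD3 and CRB3. Outside the 38 genes, library 4 was also lowest of its set for KRT8, KRT18, KRT19, CTNNA1 and CTNND1, and it had the highest VIM, 73.2 TPM. The share of all genes that are lowest in a given library was not computed. Whether the level of VIM in library 4 has a part in these levels was not tested.

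**Figure D5:**
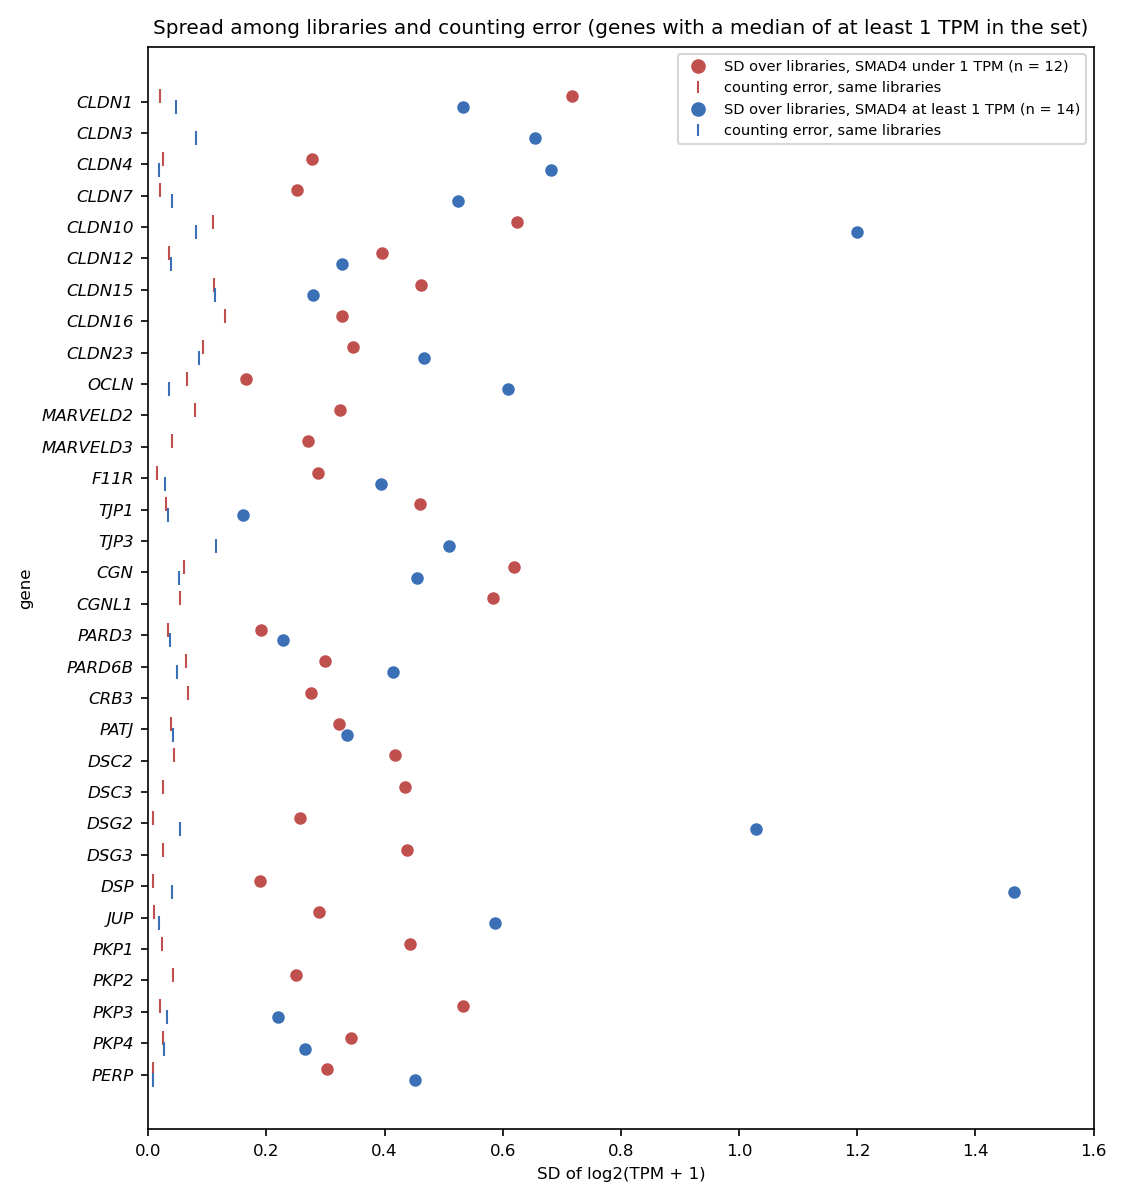
SD of log2(TPM + 1) over the libraries of a set (dots) and expected from counting error in the same libraries (ticks), for genes with a median of at least 1 TPM in that set. DSP, CLDN10 and DSG2 in the SMAD4-expressing libraries lie farthest to the right, at 1.46, 1.2 and 1.03, and every dot lies to the right of its tick.

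Whether the junction genes differ between the lines as labelled was tested with edgeR's quasi-likelihood test on estimated counts, over all genes, with a Benjamini-Hochberg adjusted p under 0.05 and a log2 fold change over 1. Over all 26 libraries, 0 of 36 genes tested passed, with 0% of 16008 genes, and 0 had an unadjusted p under 0.05, where 2.29% of all genes did. DESeq2 and limma also called 0, with 0 at an unadjusted p under 0.05 by each. DSG2, for example, was at 158 ± 181 TPM (SD, n = 12) in libraries labelled BxPC3 and at 142 ± 144 TPM (SD, n = 14) in those labelled Panc-1. Both labels hold libraries of both sets.

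Within the SMAD4-low libraries, 5 labelled BxPC3 and 7 labelled Panc-1, edgeR called 0 of 35 genes, with 0% of 16124 genes, and 5 had an unadjusted p under 0.05, where 11.4% of all genes did. These were DSC2, DSG2, DSG3, PARD6B and PATJ, each lower in the libraries labelled Panc-1. DSC2 was at 13.1 ± 3.50 TPM (SD, n = 5) against 8.13 ± 1.63 TPM (SD, n = 7), a log2 fold change of -0.68 ± 0.20 (SE) with an edgeR adjusted p of 0.404, the lowest of the 35. DESeq2 and limma gave 6 and 7 at an unadjusted p under 0.05 and called 0.

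Within the SMAD4-expressing libraries, 7 of each label, edgeR called 0 of 29 genes, with 0% of 15161 genes, and 3 had an unadjusted p under 0.05, where 4.62% of all genes did. CLDN1 was lower in the libraries labelled Panc-1, and CLDN7 and JUP were higher, with an edgeR adjusted p of 0.982 for each. DESeq2 and limma called 0, with 4 and 1 at an unadjusted p under 0.05. Whether the label effect differed between the sets was tested with an interaction term in edgeR over all libraries: 0 of 36 genes passed an adjusted p under 0.05, with 0% of 16008 genes, and 5 had an unadjusted p under 0.05, where 7.95% of all genes did. PKP1 had the lowest, 0.000905 (edgeR adjusted p = 0.506); library 9 holds most PKP1 RNA of the SMAD4-expressing set. No label difference was detected among these genes. Since each label holds libraries of both sets, these tests compare labels only. They cannot show whether the BxPC3 and Panc-1 lines themselves differ in these genes. With 1 library an SCDCL the p-values measure the spread between libraries.

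CDH1 (E-cadherin) forms the adherens junction on which desmosomes and tight junctions are built, and is not among the 38 genes. It was at 90.8 to 198 TPM (median 136) in the SMAD4-low and at 0.338 to 7.74 TPM (median 2.62) in the SMAD4-expressing libraries. Within each set, limma was used to test whether a gene's log2(TPM + 1) moved with that of CDH1. In the SMAD4-low libraries 0 of 30 genes passed an adjusted p under 0.05, with 0% of 14094 genes. At an unadjusted p under 0.05, 6 passed, each rising with CDH1, where 11.2% of all genes did so: PKP1, DSG3, PATJ, DSP, DSC3 and DSG2. Library 4, in which PKP1, DSG3, DSP and DSC3 were lowest, also had the lowest CDH1 of the set, 90.8 TPM. CDH1 was at 123 to 198 TPM in the 5 SMAD4-low libraries with the BxPC3 label and at 90.8 to 153 TPM in the 7 with the Panc-1 label. With the label as a second term, or without library 4, 0 of the 30 genes passed an adjusted p under 0.05, and their part in the unadjusted count was not tested.

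PKP1, named after its value was seen because it had the lowest p, had a slope of 1.01 ± 0.211 (SE) log2 units per log2 unit of CDH1 (limma adjusted p = 0.231). Its Pearson's r was 0.83 (permutation p = 0.00195) and its Spearman's rho 0.71 (permutation p = 0.0125) over 12 libraries, with r = 0.88 without the 2 libraries farthest from the median of CDH1. These p-values are 1 pair of 30 and are not adjusted. In the SMAD4-expressing libraries 0 of 22 genes passed, with 0% of 13531 genes, and 0 had an unadjusted p under 0.05, where 6.88% did.

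A list of 55 further genes gave the surroundings, and 41 had a median of at least 1 TPM in at least 1 set. Of these, 14 were set apart with the higher level in the SMAD4-low libraries and 6 with the higher level in the SMAD4-expressing ones, against 12.6% and 12% of all genes. Among other tight junction genes the counts were 2 and 3 of 15, near those shares. LSR, which marks tricellular corners, was at 242 to 379.6 TPM (median 298) and 13.8 to 104 TPM (median 72.2). JAM3 and MPDZ, a relative of PATJ, were over 4-fold higher in the SMAD4-expressing libraries, at 0.238 to 0.932 TPM (median 0.690) and 7.31 to 53.2 TPM (median 25.8), and at 0 to 0.935 TPM (median 0.00372) and 4.94 to 24 TPM (median 8.36).

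The pairs F11R and JAM3, and MARVELD2 and OCLN, are thus relatives that lay in opposite directions between the sets. JAM2 lay in the direction of F11R, at 2.61 to 5.16 TPM (median 3.44) and 0.567 to 2.06 TPM (median 1.53), with medians under 2-fold apart. MARVELD3 lay in the direction of MARVELD2. Of the adherens junction genes, 6 of 11 were set apart, all higher in the SMAD4-low libraries, and those over 4-fold were CDH1, CDH3, EPCAM, NECTIN1 and NECTIN4. The catenin CTNNA1, which links adherens junctions to actin, was at 136 to 214 TPM (median 191) and 155 to 218 TPM (median 178). Of the other desmosome genes, EVPL and PPL, which encode plakins, were the 2 with a median of at least 1 TPM, and neither was set apart. DSG1, DSC1, DSG4 and CDSN, which are known from skin, did not pass 0.409 TPM in any library.

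Of 13 regulators known to act on junction genes, 6 were set apart with the higher level in the SMAD4-low and 3 in the SMAD4-expressing libraries. ZEB1, a repressor of CDH1, was at 0.259 to 2.39 TPM (median 1.26) and 16.8 to 26.2 TPM (median 21.6). Its relative ZEB2 overlapped, at 0.795 to 3.24 TPM (median 1.71) and 0.839 to 2.2 TPM (median 1.39). SNAI1 was at 0.204 to 1.3 TPM (median 0.765) and 4.36 to 9.86 TPM (median 6.41). SNAI2, a repressor of the same family, had the opposite order, at 43.8 to 89.5 TPM (median 64.2) and 0 to 1.55 TPM (median 0.0295). The epithelial splicing factor ESRP1 was at 39.4 to 80.8 TPM (median 55.8) and 0 to 0.808 TPM (median 0.187). KLF5, ELF3 and OVOL2 were also over 4-fold higher in the SMAD4-low libraries, while GRHL3, of the grainyhead family, was over 4-fold higher in the SMAD4-expressing libraries, at 0.0999 to 2.31 TPM (median 0.598) and 2.76 to 36.5 TPM (median 14.2). Its relative GRHL2 was at 0.789 to 12.3 TPM (median 6.01) and 0 to 1.23 TPM (median 0.0697), and overlapped. GRHL1 overlapped too, at 0.836 to 2.11 TPM (median 1.71) and 2.03 to 8.56 TPM (median 4.96). The grainyhead motif AACNNGTT, searched on both strands, was present in 1 of the 46 member windows, that of CGN, and in 3.52% of all windows. The part of any of these regulators in the junction levels was not tested.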

How the data were processed

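RNA was measured once in each of 26 SCDCLs after poly-A selection and strand-specific library preparation. Per the labels and methods, the authors quantified transcripts with kallisto 0.46.1 against Ensembl release 103 (GRCh38). The deposited table gives TPM per gene, which sum to 982304 to 986981 a library, and estimated counts. By the authors' naming these counts are TPM scaled by transcript length, and they are not normalized between libraries. Counting error as given here takes them as counts of reads. Another 806 columns of single libraries (resamples of the estimated counts and lengths) were not used, and counting error was computed from the estimated counts in their place, which leaves out the error of assigning reads to transcripts. Of 41078 genes, 36315 were matched to a symbol, and positions are those of GENCODE 44.

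The genes, the lists and the division by SMAD4 at 1 TPM were chosen with earlier results of these data known. Levels are TPM, and ratios of medians and SDs use TPM + 1. Rounded estimated counts were tested with edgeR 4.0.16 (TMM, filterByExpr, quasi-likelihood), log2(TPM + 1) with limma 3.58.1 for CDH1, with Benjamini-Hochberg adjustment over all genes. DESeq2 1.42.0, limma, other filters, a pseudocount of 0.1, a minimum median of 5 TPM and leaving out each library were alternatives. The interaction test was added after seeing the data. Permutation p-values are two-sided and used 100000 permutations. Analyses used R 4.3.3 and Python 3.11.15, and the tests were checked on simulated data. Named were members with a median of at least 10 TPM, the 5 with the largest SD in each set, members past the threshold with CDH1, and genes of other lists set apart over 4-fold; further names were chosen after their values were seen. No 2 libraries agreed within sampling noise. Response to gemcitabine is not in the labels, so that comparison was not analysed here.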

Additional observations from a re-analysis of the deposited data

How the results depend on the processing

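The count of junction genes set apart and higher in the SMAD4-low libraries was 14, and 10 to 14 with TMM-scaled CPM, a pseudocount of 0.1, a minimum median of 5 TPM, or medians over 4-fold or any distance apart. With each library left out it was 14 to 15: PKP3 joined without library 4 and DSC2 without library 23. The count higher in the SMAD4-expressing libraries was 2 in each case. Genes varying over 2-fold numbered 14 to 22 in the SMAD4-low and 14 to 18 in the SMAD4-expressing libraries under the alternatives, and 16 to 20 and 15 to 17 with each library left out. The calls between labels and with CDH1 were 0 under each alternative run, including SMAD4 set as a second term for the labels and the label as a second term for CDH1, and 0 with each library left out. No paired analysis was possible because the labels share no replicate numbers. Depth limits genes such as DSG3, CLDN3 and PKP1 in the set where most libraries have under 10 estimated counts, where levels near 0 cannot be ordered.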
